A study of Homo sapiens with 12 samples.

Results

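The 39 genes described here encode the proteins that bring glucose into the cell, break it down to pyruvate and lactate, pass pyruvate to the mitochondrion, divert glucose 6-phosphate into the pentose phosphate pathway, and store glucose as glycogen. They were chosen by gene symbol from a fixed list of names, with no measured value in the rule. The list itself was made with earlier results of these data known. All 39 were found among the 16752 genes present in both deposited expression tables. The study sequenced polyadenylated RNA of MIO-M1 cells, a spontaneously immortalised line of human Müller glia, the radial glial cells of the retina, with 3 libraries in each of 4 groups. The cells were labelled wild type (WT) and treated with small interfering RNA (siRNA), and every library is labelled day 3. The siMapk14 group received siRNA against MAPK14, which encodes the stress kinase p38-alpha, and was set against its own control siRNA group. The siMapk8+9 group received siRNA against MAPK8 and MAPK9 together, which encode the stress kinases JNK1 and JNK2, and was set against a separate control siRNA group. The labels give the 2 experiments different batches, and each knockdown shares its batch with its own control. Whether the 3 libraries of each group were grown as separate cultures is not given, so p-values here measure the spread between these libraries, which may be technical. All groups are 1 line, and in bulk RNA fewer cells of a type and less RNA per cell cannot be told apart.

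Glycolysis splits glucose into pyruvate and yields ATP without oxygen, and its rate is set largely at glucose uptake, hexokinase and phosphofructokinase. Pyruvate is then either reduced to lactate and exported or oxidised in mitochondria, a choice that pyruvate dehydrogenase and its inhibitory kinases govern. Müller glia are known for high aerobic glycolysis, for export of lactate to neighbouring photoreceptors and neurons, and for being the main glycogen store of the retina. Many genes of this group are textbook targets of hypoxia-inducible factor, which binds short ACGTG or GCGTG elements.

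Library quality differed between the groups. The 6 control libraries held 31040067 to 31510571 counts, the siMapk14 libraries 14516406 to 19463837, and the siMapk8+9 libraries 9246294 to 20136463. Mitochondrially encoded genes took 1.56% to 2.03% of the counts in the controls, 32.1% to 45.0% in siMapk14, and 36.9%, 8.93% and 35.0% in siMapk8+9 replicates 1, 2 and 3. Replicate 2 of siMapk8+9 stood apart in a further way: 19 keratinocyte marker genes measured in both tables summed to 1702 CPM there against 120 to 151 CPM in the other 11 libraries, with KRT14 at 409, KRT5 at 240 and CDH1 at 29.7 CPM, all 3 below 1 CPM elsewhere. Of the Müller glia markers, VIM, GLUL and SOX9 were abundant in every library, while RLBP1 reached at most 1.06 CPM and RAX and KCNJ10 at most 0.0972 CPM, so the defining markers RLBP1 and KCNJ10 were at or near 0. In both knockdowns the fold change of a gene also followed its transcript length: the median log2 fold change ran from 0.90 in the shortest of 10 equal groups of genes to -0.65 in the longest in siMapk14, and from 1.23 to -0.91 in siMapk8+9. Every comparison was therefore computed from the counts as deposited and again with this trend removed, and those resting on siMapk8+9 with and without replicate 2. What part the mitochondrial share, the keratinocyte markers, the depth and the length trend have in the results was not tested. Of the members, 10 held fractional counts in some library, which arise when reads are shared with other genes. ALDOA did in all 12, PDK2 in 10, PGAM1 in 9, GPI and SLC16A3 in 8 and PDHA1 in 7. PFKFB4 did in 6, PFKM in 5, SLC2A3 in 3 and PFKFB2 in 1. The levels of these 10 genes are less certain. The targeted genes were lower in their own knockdown: MAPK14 fell by 1.20 on the log2 scale in siMapk14, and MAPK8 by 1.48 and MAPK9 by 1.49 in siMapk8+9; MAPK14 also fell by 0.60 in siMapk8+9.

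In the control libraries the members ranged from 0.80 to 9577 TPM. GAPDH, the dehydrogenase of the lower steps of glycolysis, led with 6662 to 9577 TPM (the authors' unit corrected for transcript length and scaled to a fixed total per library) over the 6 libraries. ENO1, the main enolase, followed at 4263 to 4905 TPM, then the pyruvate kinase gene PKM at 3514 to 4039, the aldolase gene ALDOA at 2284 to 4287 and the lactate dehydrogenase gene LDHA at 2018 to 2790. These 5 genes were the top 5 in every control library. At the low end stood PDK3 and PDK2, kinases that inhibit pyruvate dehydrogenase, at 7.45 to 11.5 and 4.66 to 11.7 TPM, the bifunctional regulator PFKFB2 at 4.06 to 6.76, and ALDOC, the brain aldolase, at 0.80 to 1.31. Of the 38 pairs of neighbours in this order, 28 had overlapping ranges over the 6 controls and their order is not resolved. Pairs that did not overlap included GAPDH above ENO1, ENO1 above PKM, LDHA above TPI1 and TPI1 above LDHB.

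**Figure D1:**
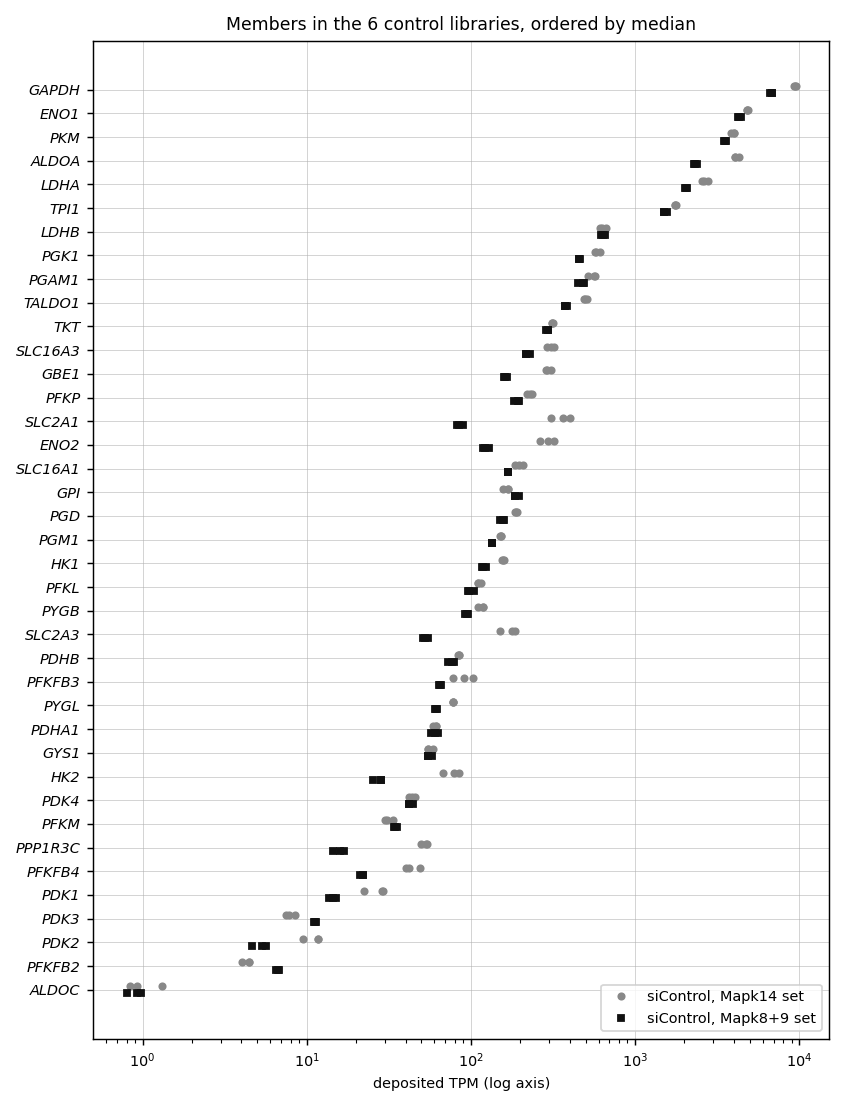
Deposited TPM (log axis) of each member in the 3 libraries of each control set, with genes ordered by their median over the 6 libraries. GAPDH leads at 6662 to 9577 TPM and ALDOC is lowest at 0.80 to 1.31 TPM, and SLC2A1, SLC2A3, HK2, ENO2 and PPP1R3C are higher in the Mapk14 set than in the Mapk8+9 set with no overlap.

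With MAPK14 knocked down, 20 of the 39 members fell and 10 rose at an adjusted p under 0.05 in edgeR's quasi-likelihood test, and 9 did not pass. Over all 13183 genes tested, 59.9% passed, 30.5% lower and 29.4% higher. The median log2 fold change was -0.28 over the members and -0.02 over all genes. Glucose uptake, hexokinase, glycogen synthase and the lactate exporter SLC16A3 were lower, whereas GAPDH, LDHB and the 3 pentose phosphate enzymes were higher. With the length trend removed, 21 members passed as lower and 4 as higher (the fourth was PFKFB2), against 21.9% and 24.4% of all genes (46.3% in either direction). Of the 20 falls 16 were kept and 4 did not pass (PGK1, PDK1, PDK3 and PDK4). Of the 10 rises 3 were kept (PDHA1, PGD and TKT): GPI, GAPDH, LDHB and TALDO1 did not pass, and ALDOA, TPI1 and PDHB passed as lower. All directions here are relative to the bulk of the genes: when libraries were scaled by their total counts, mitochondrial counts included, the median of all genes moved to -0.79 in siMapk14 and -0.71 in siMapk8+9, and members split into 35 lower and 0 higher in the first and 3 lower and 5 higher in the second, against 68.9% and 46.0% of all genes called.

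With MAPK8 and MAPK9 knocked down, 24 of the 39 members rose, PDK3 alone fell, and 14 did not pass. Over all 13124 genes tested, 52.9% passed, 26.8% higher and 26.1% lower, and the median log2 fold change was 0.81 over the members against -0.05 over all genes. Of the 7 lower glycolytic genes 6 rose, as did both glucose carriers, all 3 pentose phosphate enzymes and 4 of 6 glycogen genes. With the length trend removed 22 passed as higher and 0 as lower, against 21.7% higher and 38.0% in either direction among all genes, and 21 of the 24 rises were kept; LDHB, PDHB and TALDO1 did not pass and HK1 was gained. Without replicate 2, the library with keratinocyte markers, all 24 rises and the fall of PDK3 were kept, 27 members rose and 8 fell, against 33.6% and 37.5% of all genes (71.1% in either direction). The 3 further rises were GPI, PKM and PDK2, and the 7 further falls were PFKL, PFKM, PFKFB2, SLC16A1, SLC16A3, GYS1 and PYGB. With both the trend and replicate 2 removed, all 24 rises were kept, 28 members rose and 3 fell (SLC16A1, SLC16A3 and GYS1), against 60.7% of all genes in either direction.

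**Figure D2:**
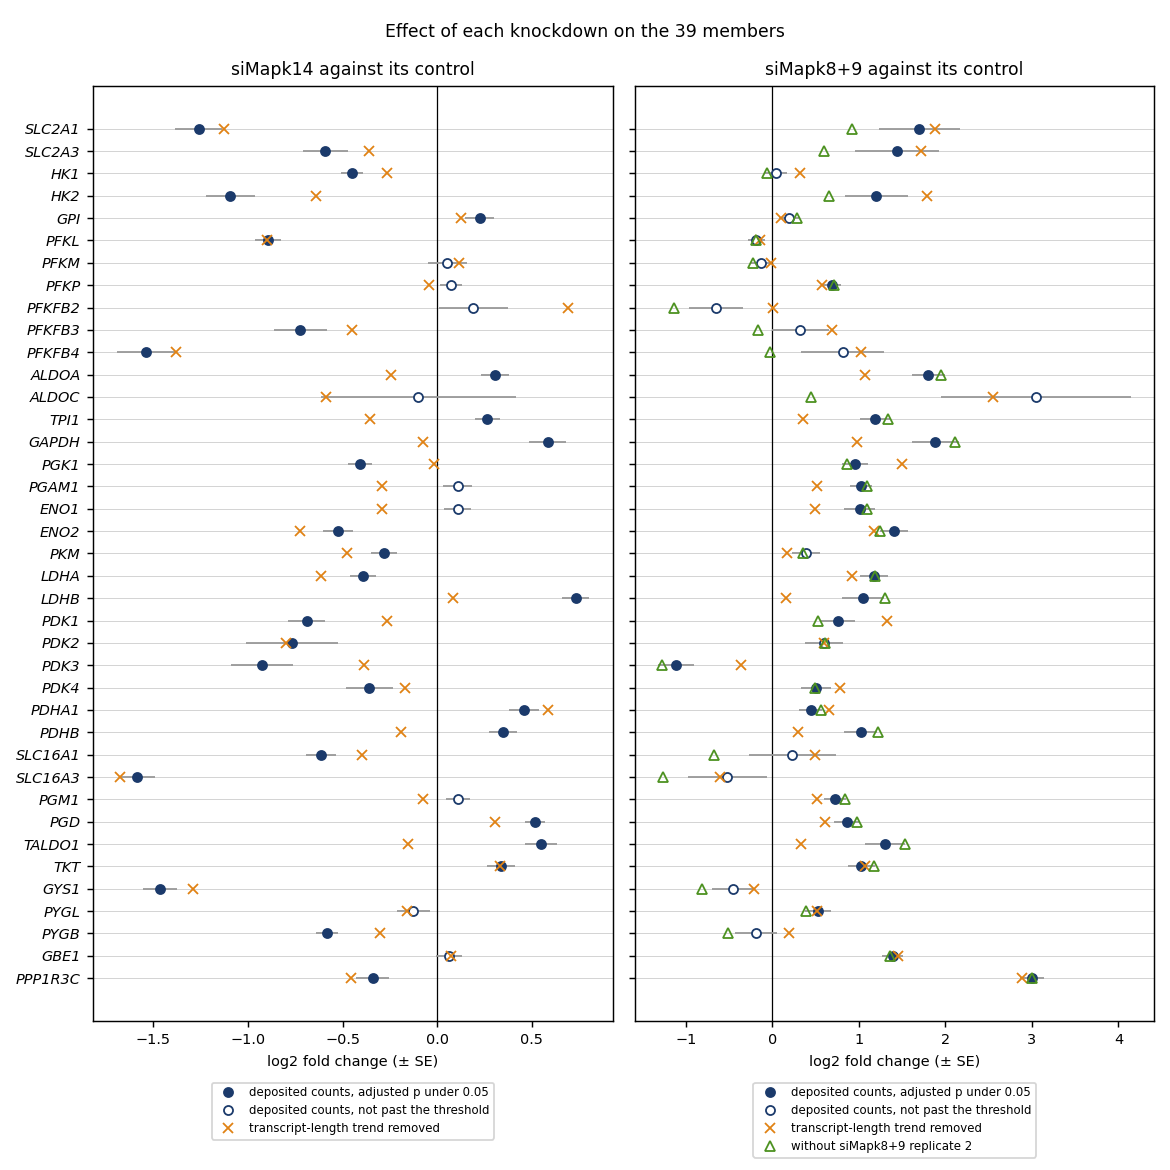
Log2 fold change (x axis, ± SE, n = 3 against 3) of each member in siMapk14 (left) and siMapk8+9 (right) against its own control, filled where past the threshold and open where not, with crosses for the length trend removed and triangles for the fit without siMapk8+9 replicate 2. SLC16A3, PFKFB4, GYS1 and SLC2A1 lie farthest to the left in siMapk14, and PPP1R3C at 3.00 lies farthest to the right among the called members in siMapk8+9.

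Sequences around the transcription start are shown for PPP1R3C and GBE1, which rose in every siMapk8+9 library, for PGK1 and LDHA, which fell in siMapk14 and rose in siMapk8+9, and for LDHB, which rose in both. PPP1R3C also fell in siMapk14, as PGK1 and LDHA did. The fall of PGK1 and both rises of LDHB did not pass with the length trend removed. They are RefSeq sequences of the GRCh38.p14 build, 5′ to 3′ on the gene's strand, from 250 bases before to 50 after the start. Capitals mark ACGTG and GCGTG on either strand, so CACGT and CACGC are their reverse strand. An ACGTG and a CACGT that overlap in CACGTG count as 2 matches.
PPP1R3C, chr10:91633022-91633321, minus strand: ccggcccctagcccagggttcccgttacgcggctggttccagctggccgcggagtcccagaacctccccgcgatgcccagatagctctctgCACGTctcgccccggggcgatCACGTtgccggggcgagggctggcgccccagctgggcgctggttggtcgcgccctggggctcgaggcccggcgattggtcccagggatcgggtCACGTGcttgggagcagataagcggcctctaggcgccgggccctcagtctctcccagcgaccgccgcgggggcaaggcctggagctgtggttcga
GBE1, chr3:81761596-81761895, minus strand: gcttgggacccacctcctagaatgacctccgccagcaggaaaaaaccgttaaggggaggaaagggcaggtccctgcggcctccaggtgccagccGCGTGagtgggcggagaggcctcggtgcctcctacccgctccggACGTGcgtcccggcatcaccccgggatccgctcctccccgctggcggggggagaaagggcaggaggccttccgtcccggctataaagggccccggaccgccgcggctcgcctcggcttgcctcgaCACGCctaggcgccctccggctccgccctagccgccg
PGK1, chrX:78103998-78104297, plus strand: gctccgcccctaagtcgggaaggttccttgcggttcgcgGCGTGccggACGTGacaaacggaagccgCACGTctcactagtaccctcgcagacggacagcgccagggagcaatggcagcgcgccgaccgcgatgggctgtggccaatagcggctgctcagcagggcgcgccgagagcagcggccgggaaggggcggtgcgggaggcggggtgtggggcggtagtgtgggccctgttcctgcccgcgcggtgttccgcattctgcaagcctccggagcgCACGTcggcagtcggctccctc
LDHA, chr11:18394313-18394612, plus strand: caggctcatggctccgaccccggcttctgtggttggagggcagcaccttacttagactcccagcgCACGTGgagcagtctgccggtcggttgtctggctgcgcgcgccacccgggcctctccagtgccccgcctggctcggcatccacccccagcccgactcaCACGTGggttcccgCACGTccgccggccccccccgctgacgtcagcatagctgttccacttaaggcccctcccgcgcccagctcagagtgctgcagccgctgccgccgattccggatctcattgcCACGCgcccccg
LDHB, chr12:21657793-21658092, minus strand: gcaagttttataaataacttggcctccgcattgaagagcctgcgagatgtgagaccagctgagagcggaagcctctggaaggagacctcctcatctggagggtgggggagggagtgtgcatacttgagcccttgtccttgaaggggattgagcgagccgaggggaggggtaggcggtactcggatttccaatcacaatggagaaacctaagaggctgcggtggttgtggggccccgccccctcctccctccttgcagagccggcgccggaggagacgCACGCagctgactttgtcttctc
PPP1R3C holds 4 matches to ACGTG, 2 of them in a single CACGTG. LDHA holds 5, 4 of them in 2 CACGTG, and 1 to GCGTG. PGK1 holds 3 to ACGTG and 1 to GCGTG, GBE1 holds 1 and 2, and LDHB 0 and 1. Of the members, 36 matched the table, with 66 starts; PFKFB2, SLC16A1 and SLC2A3 are named only. Of these starts 25 (37.9%) hold ACGTG and 41 (62.1%) hold either element. Over all 35116 promoters of the same length, 21.4% hold ACGTG and 48.4% hold either. Matches of letters do not show binding. LDHA has a second start in the table, with 0 and 1 matches. Of the other members that fell in siMapk14 and rose in siMapk8+9, SLC2A1 and PDK4 hold 0 matches to ACGTG and ENO2 holds 1. The starts of HK2 hold 2 and 4, and those of PDK1 hold 0 and 2. Of the others that rose in both, PDHB holds 3, GAPDH 2, PGD 1, and PDHA1, TALDO1 and TKT 0. The starts of ALDOA hold 1, 2 and 1, and those of TPI1 hold 0 and 1. Any link of matches to direction was not tested.

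Each set against its own control, the 2 glucose carriers moved in opposite directions in the 2 knockdowns. SLC2A1 (chr1:42925353-42958868 on GRCh38.p14) encodes GLUT1, the carrier that supplies most glial cells and endothelium with glucose. It stood at 441, 514 and 564 CPM (counts scaled to a fixed total, with factors set over the 12 libraries) in the Mapk14 control libraries and at 204, 177 and 239.6 in siMapk14 (log2 fold change -1.26 ± 0.12, SE, edgeR adjusted p = 4.05e-05). Every siMapk14 library lay below every library of its control, and the fall held with the length trend removed at -1.13. In the Mapk8+9 control it stood at 109, 111 and 117 CPM, and in siMapk8+9 at 186, 662 and 233 (log2 fold change 1.70 ± 0.47, SE, edgeR adjusted p = 0.0208). All 3 siMapk8+9 libraries were higher than the controls, but replicate 2 was far above the other 2, and without it the log2 fold change was 0.92 (edgeR adjusted p = 6.74e-05). The siMapk14 libraries, although lower than their own control, were still above all 3 libraries of the other control set. Against the Mapk14 control, siMapk8+9 replicate 2 lay above every library and the other 2 libraries lay below every one. SLC2A3, the high-affinity neuronal carrier GLUT3, went from 245, 287 and 297 CPM to 178, 152 and 208 in siMapk14 (log2 fold change -0.59 ± 0.12, SE, edgeR adjusted p = 0.00227), and from 83.4, 76.7 and 78.3 to 108, 398 and 128 in siMapk8+9 (log2 fold change 1.44 ± 0.49, SE, edgeR adjusted p = 0.0428). Here too replicate 2 was far above the rest, and without it the value was 0.60. SLC2A3 in siMapk8+9 also lay above the Mapk14 control in replicate 2 only, and below it in the other 2 libraries. The calls of both carriers in siMapk8+9 were also lost when any of the 3 control libraries was left out, at log2 fold changes of 1.67 to 1.72 for SLC2A1 and 1.40 to 1.46 for SLC2A3.

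Hexokinase, which traps glucose in the cell by phosphorylation, fell in both forms under siMapk14. HK1, the constitutive form, went from 235, 236 and 238 to 160.3, 172 and 176 CPM (log2 fold change -0.45 ± 0.06, SE, edgeR adjusted p = 0.000178). HK2, the inducible form, went from 161, 185 and 198 to 72.9, 74.5 and 101 CPM (log2 fold change -1.09 ± 0.13, SE, edgeR adjusted p = 0.000123), and was -0.64 with the length trend removed. Neither gene's groups overlapped. In siMapk8+9, HK2 stood at 79.2, 226 and 109.8 CPM against 64.7, 56.1 and 62.9 in its control (log2 fold change 1.20 ± 0.37, SE, edgeR adjusted p = 0.0298). All 3 knockdown libraries were above the controls, with replicate 2 at the top, and the value without it was 0.65 (edgeR adjusted p = 0.00304). That HK2 call was lost when any control library or siMapk8+9 replicate 3 was left out, at 1.13 to 1.34. HK1 in siMapk8+9 was 149, 199 and 169 against 168, 167 and 174 CPM, with overlapping groups and a log2 fold change of 0.04 ± 0.13 that did not pass; it passed as higher, at 0.32, with the length trend removed.

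Phosphofructokinase commits sugar to glycolysis and exists as liver (PFKL), muscle (PFKM) and platelet (PFKP) forms, which did not move together. PFKL fell in siMapk14, from 139, 131 and 131 to 65.6, 75.4 and 70.8 CPM (log2 fold change -0.89 ± 0.07, SE, edgeR adjusted p = 1.24e-05), and was -0.90 with the length trend removed. PFKM and PFKP did not pass there, at 0.05 ± 0.10 and 0.07 ± 0.06, with overlapping groups. In siMapk8+9, PFKP rose from 182, 191 and 193 to 312, 296 and 291 CPM (log2 fold change 0.69 ± 0.10, SE, edgeR adjusted p = 0.00212), and its value without replicate 2 was 0.71. PFKL was slightly lower in all 3 siMapk8+9 libraries, at 91.99, 98.7 and 97.3 against 109.6, 107 and 115 CPM, but did not pass at -0.18 ± 0.09; without replicate 2 it passed at -0.19. PFKM was 34.8, 42.4 and 34.9 CPM there against 41.8, 42.1 and 41.5, and its replicate 2 lay above the controls while the other 2 libraries lay below them.

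The PFKFB genes encode bifunctional enzymes that make or remove fructose 2,6-bisphosphate, the strongest activator of phosphofructokinase. PFKFB4 was among the members that fell most in siMapk14: its controls stood at 60.1, 61.7 and 71.6 CPM and the knockdown libraries at 25.7, 16.1 and 22.8 (log2 fold change -1.54 ± 0.15, SE, edgeR adjusted p = 4.22e-05). PFKFB3, the form with the highest kinase activity, went from 137, 159 and 177 to 91.8, 76.01 and 112 CPM (log2 fold change -0.72 ± 0.14, SE, edgeR adjusted p = 0.00198). Neither gene's groups overlapped, and both falls held with the length trend removed, at -1.38 and -0.45. PFKFB2, the heart form, was low throughout, with 11.98, 11.1 and 11.03 CPM in the control and 15.02, 9.00 and 13.8 in siMapk14, and did not pass; with the length trend removed it passed as higher, at 0.69. Under siMapk8+9 replicate 2 held the highest value of the group for all 3 genes. PFKFB4 was 34.1, 96.6 and 23.7 CPM there against 30.8, 30.6 and 29.1 in the control, PFKFB3 78.4, 208 and 109.6 against 109, 106 and 107, and PFKFB2 6.99, 16.7 and 8.86 against 18.1, 17.5 and 17.9. None of the 3 passed; without replicate 2 PFKFB4 was -0.02, PFKFB3 -0.16 and PFKFB2 -1.14, of which PFKFB2 passed (edgeR adjusted p = 0.000203).

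The enzymes from aldolase to pyruvate kinase are the most abundant of the group. ALDOA, which cleaves fructose bisphosphate, rose from 2224, 2228 and 2321 to 2788, 2848 and 2564 CPM in siMapk14 (log2 fold change 0.31 ± 0.07, SE, edgeR adjusted p = 0.0055) and from 1154, 1165 and 1191 to 4333, 3273 and 4479 in siMapk8+9 (log2 fold change 1.80 ± 0.19, SE, edgeR adjusted p = 0.000816). With the length trend removed ALDOA turned to -0.24 in siMapk14 and stayed at 1.08 in siMapk8+9. GAPDH, often used as a reference gene, went from 4306, 4209.8 and 4305 to 6372, 6924 and 5536 CPM in siMapk14 (log2 fold change 0.58 ± 0.10, SE, edgeR adjusted p = 0.000802), and was -0.07 and not past the threshold with the length trend removed. In siMapk8+9 it went from 2777, 2844 and 2857 to 11681, 7003 and 12126 CPM (log2 fold change 1.88 ± 0.27, SE, edgeR adjusted p = 0.00212), with 0.98 after removal of the trend and 2.11 without replicate 2. Its knockdown libraries did not overlap their controls in either experiment; scaled by total counts GAPDH was -0.20 in siMapk14 and 1.13 in siMapk8+9. PGK1, which makes the first ATP of the pathway, fell in siMapk14 from 1189.8, 1188 and 1252 to 847, 934 and 899 CPM (log2 fold change -0.41 ± 0.07, SE, edgeR adjusted p = 0.000601); with the length trend removed it was -0.02 and did not pass. It rose in siMapk8+9 from 899, 889 and 874 to 1495, 1918 and 1671 CPM (log2 fold change 0.95 ± 0.15, SE, edgeR adjusted p = 0.00278), and to a log2 fold change of 1.49 with the trend removed.

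TPI1, GPI, PGAM1 and ENO1 carry out single interconversions along the chain. In siMapk14 GPI and TPI1 passed as higher, at 0.22 and 0.27 (the GPI call was lost when any single library other than siMapk14 replicate 3 was left out, at 0.13 to 0.23), while PGAM1 and ENO1 did not pass, each at 0.11; with the length trend removed TPI1, PGAM1 and ENO1 passed as lower, at -0.36, -0.29 and -0.29. In siMapk8+9 TPI1 (log2 fold change 1.19), PGAM1 (1.02) and ENO1 (1.01) rose and stayed past the threshold with the trend removed, at 0.36, 0.52 and 0.50. PGAM1 there went from 289.7, 308 and 312 to 603, 549 and 670.0 CPM, and ENO1 from 2709, 2781 and 2711 to 5622, 4808 and 5834. ENO2, the neuronal enolase, fell in siMapk14 from 243, 268 and 292 to 173, 182 and 192 CPM (log2 fold change -0.53 ± 0.08, SE, edgeR adjusted p = 0.000455), and rose in siMapk8+9 from 102, 109 and 103 to 229, 336 and 257 (log2 fold change 1.41 ± 0.16, SE, edgeR adjusted p = 0.00106). Both ENO2 calls held with the trend removed, at -0.73 and 1.18. PKM, pyruvate kinase, fell in siMapk14 from 3738, 3553 and 3633 to 2846, 2974 and 2986 CPM (log2 fold change -0.28 ± 0.07, SE, edgeR adjusted p = 0.00726), and in siMapk8+9 it was 3746, 4196 and 3806 against 3031, 3040.4 and 3017 CPM, above its control in all 3 libraries but not past the threshold at 0.39 ± 0.17. Without siMapk8+9 replicate 2 PKM passed as higher there. ALDOC was near 0 in 11 libraries, at most 1.14 CPM, stood at 10.1 CPM in siMapk8+9 replicate 2, and did not pass in either knockdown.

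**Figure D3:**
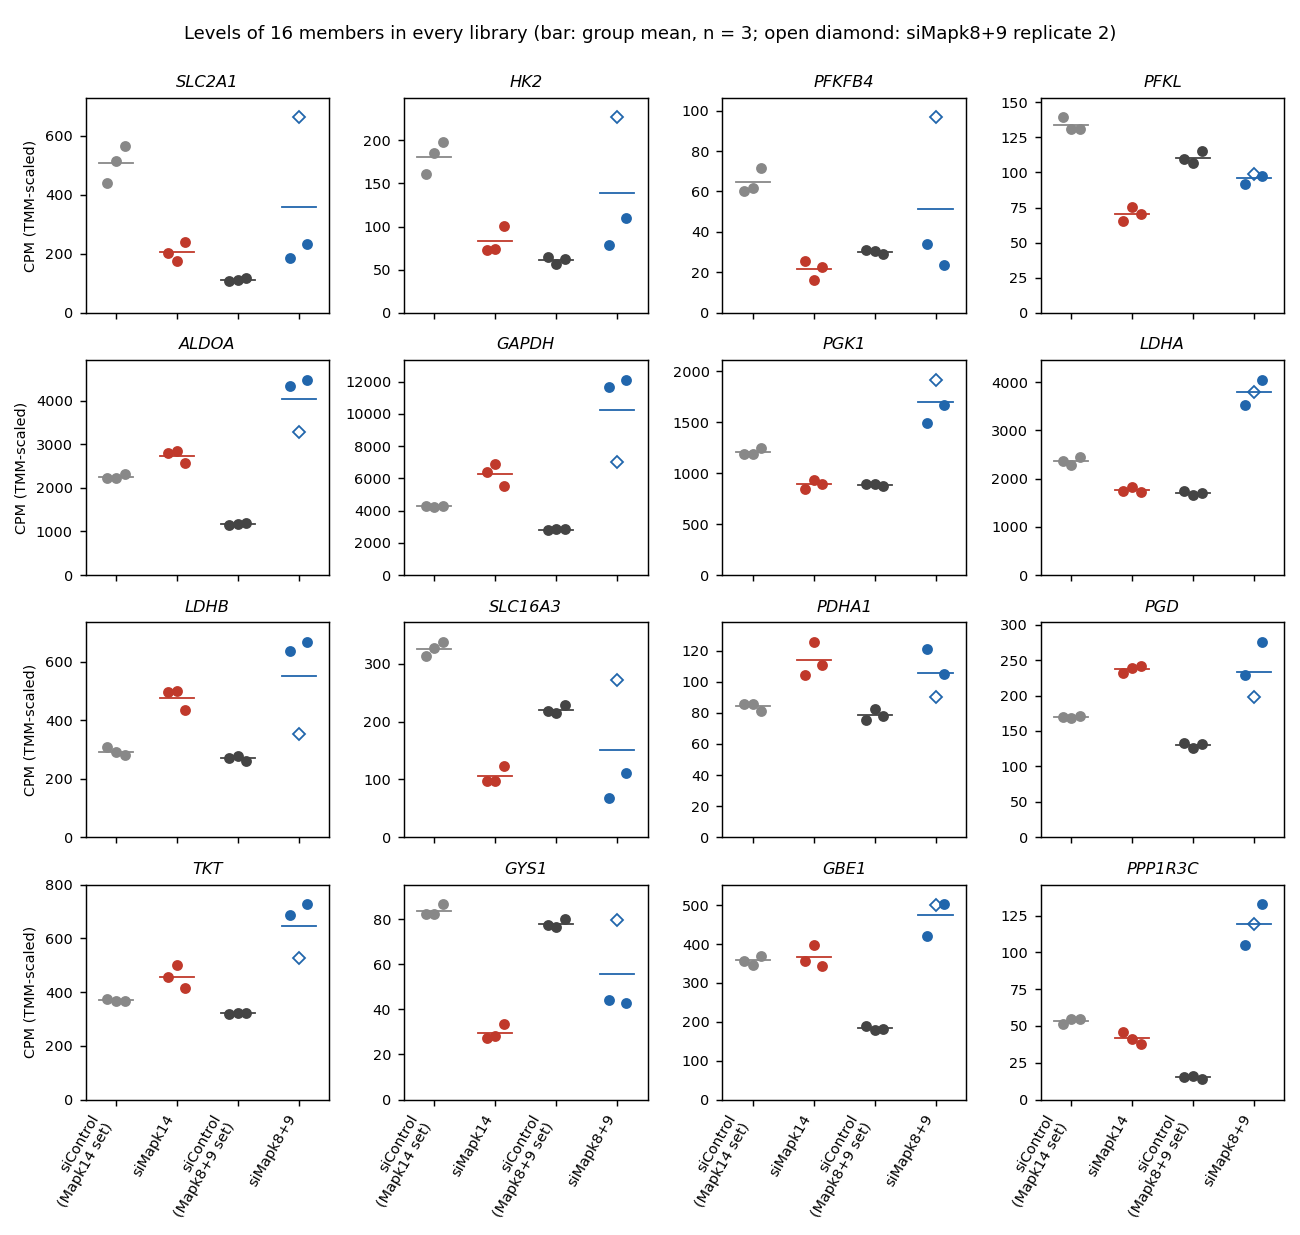
TMM-scaled CPM (y axis, from 0) of 16 members in each of the 12 libraries, with a bar at each group mean and an open diamond for siMapk8+9 replicate 2. SLC2A1 in siMapk14 is below its own control but above the other control set, and SLC16A3 and SLC2A1 in siMapk8+9 replicate 2 lie far above the other 2 libraries of that group.

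At the branch to lactate the dehydrogenase genes LDHA and LDHB went opposite ways in siMapk14 and the same way in siMapk8+9, while both lactate transporters fell in siMapk14. LDHA, the form that favours the reduction of pyruvate, fell in siMapk14 from 2358, 2284 and 2455 to 1738, 1835 and 1722 CPM (log2 fold change -0.39 ± 0.07, SE, edgeR adjusted p = 0.000962). LDHB, the form of oxidative tissues, rose from 308, 291 and 281 to 496, 499 and 437 CPM (log2 fold change 0.73 ± 0.07, SE, edgeR adjusted p = 4e-05). The groups of neither gene overlapped. With the length trend removed LDHA was -0.61 and LDHB 0.08, and the LDHB call was lost. In siMapk8+9 both rose, LDHA from 1739, 1660.4 and 1693 to 3524, 3791 and 4052 CPM (log2 fold change 1.18 ± 0.16, SE, edgeR adjusted p = 0.00175) and LDHB from 272, 278 and 262 to 637, 353 and 668 CPM (log2 fold change 1.05 ± 0.25, SE, edgeR adjusted p = 0.0114). LDHB was 0.16 and did not pass with the trend removed.

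Lactate leaves the cell through the monocarboxylate transporters. SLC16A3, which encodes MCT4, the exporter typical of glycolytic cells, lies at chr17:82217934-82240086 on GRCh38.p14 and had the largest fall of any member in siMapk14: it stood at 313, 327 and 337 CPM in the control and 96.9, 98.1 and 123 in the knockdown (log2 fold change -1.59 ± 0.10, SE, edgeR adjusted p = 5.46e-06). SLC16A1, which encodes the widely expressed MCT1, fell from 296, 311 and 323 to 192, 184 and 219.7 CPM (log2 fold change -0.61 ± 0.08, SE, edgeR adjusted p = 0.000163). Both falls held with the length trend removed, at -1.68 and -0.40. In siMapk8+9 the 2 genes were split by library. SLC16A3 was 68.6, 272 and 112 CPM against 218, 215 and 228 in the control, and SLC16A1 was 143, 557 and 164 against 253, 248 and 249. Replicates 1 and 3 lay below every control library and replicate 2 above every control library for both genes. Neither passed with all libraries, at -0.52 ± 0.46 and 0.23 ± 0.50; without replicate 2 both passed as lower, at -1.26 and -0.67 (edgeR adjusted p = 0.00033 and 4.18e-05).

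The pyruvate dehydrogenase complex admits pyruvate to the citric acid cycle, and the kinases PDK1 to PDK4 switch it off. All 4 kinase genes passed as lower in siMapk14. PDK1, a classical hypoxia target, went from 50.7, 59.4 and 60.5 to 36.3, 35.5 and 32.1 CPM (log2 fold change -0.69 ± 0.10, SE, edgeR adjusted p = 0.000295), and PDK4, the kinase of fasting, from 69.9, 65.5 and 63.1 to 42.9, 61.6 and 47.9 (log2 fold change -0.36 ± 0.12, SE, edgeR adjusted p = 0.0325). PDK2, broadly expressed, went from 13.4, 12.5 and 11.1 to 4.79, 10.2 and 6.52 CPM (log2 fold change -0.77 ± 0.24, SE, edgeR adjusted p = 0.0231), and PDK3 had a log2 fold change of -0.93 ± 0.17. Of these, PDK2 passed with the length trend removed, at -0.80, while PDK1, PDK3 and PDK4 were -0.27, -0.39 and -0.17 and did not pass. The calls of PDK2 and PDK4 were also lost when single libraries were left out, at -0.76 to -0.70 for PDK2 (either of control replicates 1 and 2, or siMapk14 replicate 3) and -0.39 to -0.26 for PDK4 (any control library, or siMapk14 replicate 1 or 3). The catalytic subunits PDHA1 and PDHB passed as higher in siMapk14. PDHA1 went from 85.8, 85.7 and 81.4 to 105, 126 and 111 CPM (log2 fold change 0.46 ± 0.08, SE, edgeR adjusted p = 0.000896) and kept this with the trend removed, at 0.58; PDHB went from 47.4, 46.7 and 45.9 to 58.01, 62.3 and 54.5 (log2 fold change 0.35 ± 0.08, SE, edgeR adjusted p = 0.00364) and turned to -0.19.

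In siMapk8+9 the kinases were mixed. PDK1 rose from 42.7, 39.4 and 41.7 to 61.5, 89.99 and 54.4 CPM (log2 fold change 0.76 ± 0.19, SE, edgeR adjusted p = 0.0156), with 1.33 after removal of the length trend. PDK4 rose from 63.7, 58.8 and 59.2 to 65.5, 86.2 and 103 (log2 fold change 0.51 ± 0.17, SE, edgeR adjusted p = 0.0414). PDK3 was the single member that fell, from 39.2, 36.6 and 36.3 to 11.8, 20.2 and 18.7 CPM (log2 fold change -1.11 ± 0.20, SE, edgeR adjusted p = 0.0047), but was -0.36 and did not pass with the trend removed. PDK2, at 6.85, 8.83 and 11.2 against 5.74, 6.05 and 6.19 CPM, was higher in every library and narrowly missed the threshold (edgeR adjusted p = 0.0563). Without siMapk8+9 replicate 2 PDK2 passed as higher. PDHA1 and PDHB rose, at 0.44 ± 0.13 and 1.02 ± 0.19; PDHB did not pass with the trend removed, at 0.30. The calls of PDK1, PDK4 and PDHA1 were lost when any control library was left out, those of PDK4 and PDHA1 also without siMapk8+9 replicate 3, and that of PDHA1 without replicate 1, at 0.72 to 0.78 for PDK1, 0.34 to 0.53 for PDK4 and 0.32 to 0.47 for PDHA1.

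The pentose phosphate pathway supplies NADPH and ribose, and its 3 members rose in both knockdowns; scaled by total counts all 3 were below 0 in siMapk14, PGD at -0.26, TKT at -0.45 and TALDO1 at -0.24, and above 0 in siMapk8+9. PGD, the second NADPH-yielding step, went from 169.7, 169 and 171 to 231, 239 and 242 CPM in siMapk14 (log2 fold change 0.52 ± 0.05, SE, edgeR adjusted p = 4.65e-05) and from 133, 126 and 132 to 229, 197 and 276 in siMapk8+9 (log2 fold change 0.86 ± 0.14, SE, edgeR adjusted p = 0.00335). TKT, transketolase of the reversible branch, went from 374, 366 and 368 to 457, 501 and 415 CPM (log2 fold change 0.34 ± 0.07, SE, edgeR adjusted p = 0.00395) and from 318, 323 and 321 to 687, 525 and 728 (log2 fold change 1.03 ± 0.16, SE, edgeR adjusted p = 0.00238). No knockdown library overlapped its controls for either gene, and both held with the length trend removed, PGD at 0.31 and 0.61 and TKT at 0.33 and 1.08. TALDO1, transaldolase, rose from 203, 205 and 208 to 299, 327 and 257 CPM (log2 fold change 0.55 ± 0.09, SE, edgeR adjusted p = 0.000581) and from 142, 143 and 145 to 389, 231 and 423 (log2 fold change 1.30 ± 0.23, SE, edgeR adjusted p = 0.00404), but with the trend removed it was -0.16 and 0.33 and passed in neither.

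Among the glycogen genes, the synthase fell in siMapk14, and the targeting subunit and the branching enzyme rose in siMapk8+9. GYS1, the glycogen synthase of muscle and brain, fell in siMapk14 from 82.2, 82.2 and 86.6 to 27.4, 28.03 and 33.3 CPM (log2 fold change -1.46 ± 0.09, SE, edgeR adjusted p = 5.68e-06), with -1.29 after removal of the length trend. In siMapk8+9 it was 43.9, 79.6 and 43.01 CPM against 77.2, 76.5 and 80.2: replicates 1 and 3 were well below the controls and replicate 2 lay among them, so that it did not pass with all libraries (-0.46 ± 0.24) and passed at -0.81 without replicate 2. PPP1R3C, also called PTG, at chr10:91628442-91633071 on GRCh38.p14, brings protein phosphatase 1 to glycogen and thereby activates the synthase. It had the largest change among the called members: 15.5, 16.02 and 13.8 CPM in the Mapk8+9 control and 105, 119.7 and 133 in siMapk8+9 (log2 fold change 3.00 ± 0.13, SE, edgeR adjusted p = 0.000105). All 3 libraries, replicate 2 included, took part, and the value was 3.01 without that replicate and 2.88 with the length trend removed. In siMapk14 it fell, from 51.4, 55.1 and 54.4 to 45.6, 41.3 and 37.7 CPM (log2 fold change -0.34 ± 0.09, SE, edgeR adjusted p = 0.00892).

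GBE1, the branching enzyme, rose in siMapk8+9 from 190.4, 178 and 182 to 421, 499 and 503 CPM (log2 fold change 1.39 ± 0.12, SE, edgeR adjusted p = 0.000484), again in every library and at 1.45 with the trend removed. In siMapk14 it did not pass, at 0.06 ± 0.07. PYGL and PYGB, the liver and brain phosphorylases that release glucose from glycogen, each passed in 1 knockdown with all libraries; the 2 genes were not tested against each other. PYGB fell in siMapk14 from 194, 205 and 204 to 129, 128 and 137 CPM (log2 fold change -0.58 ± 0.06, SE, edgeR adjusted p = 3.89e-05), and PYGL did not pass, at -0.13 ± 0.09. PYGL rose in siMapk8+9 from 65.5, 66.2 and 65.2 to 74.6, 109.8 and 93.9 CPM (log2 fold change 0.52 ± 0.15, SE, edgeR adjusted p = 0.0241), where PYGB did not pass with all libraries, at 92.6, 187 and 119 against 153, 154 and 156 CPM, and was 0.19 with the trend removed. The PYGL call was lost when any control library or siMapk8+9 replicate 3 was left out, at 0.51 to 0.52. PGM1, which interconverts the glucose phosphates of glycogen and glycolysis, rose in siMapk8+9 at 0.72 ± 0.13 and did not pass in siMapk14 at 0.11 ± 0.06.

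**Figure D4:**
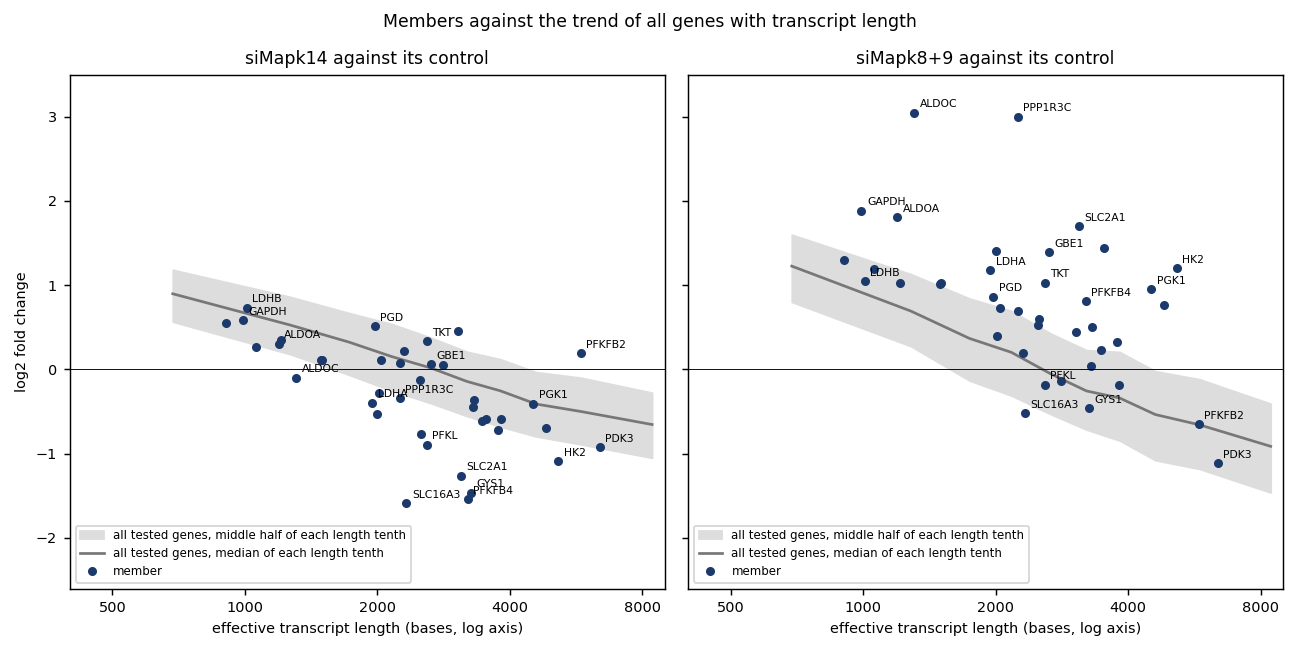
Log2 fold change of each member (y axis) against its effective transcript length in bases (log axis) in siMapk14 (left) and siMapk8+9 (right), with a line for the median and a band for the middle part (lower to upper quartile) of all tested genes in each of 10 length groups. In siMapk14 SLC16A3, GYS1, PFKFB4, SLC2A1 and PFKL lie below the band and GAPDH, LDHB and ALDOA lie within it, and in siMapk8+9 PPP1R3C, SLC2A1, GBE1, HK2 and PGK1 lie above it.

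The 2 knockdown effects were compared in a joint fit of all 12 libraries, where a negative value means that the siMapk14 effect was the lower of the pair. Of the 39 members 26 differed, all lower, against 15.9% of 13648 genes in either direction and 9.02% lower, and the median difference was -0.91 over the members and -0.02 over all genes. PPP1R3C differed by -3.35 ± 0.16 (edgeR adjusted p = 1.38e-07), ENO2 by -1.95 ± 0.18, LDHA by -1.58 ± 0.16, GBE1 by -1.34 ± 0.14, PGK1 by -1.37 ± 0.16 and ALDOA by -1.51 ± 0.19. All 7 lower glycolytic genes, both carriers and both hexokinases were among the 26. All 26 passed with the length trend removed, when 28 were lower against 11.5% of all genes, and without siMapk8+9 replicate 2; under the latter 29 were lower and PFKFB2 was higher, against 17.1% of all genes lower and 37.0% in either direction. With libraries scaled by total counts 17 of the 26 were kept, 18 members were lower and 0 higher, against 6.18% of all genes lower, and SLC2A3, HK1, PFKL, PFKP, PFKFB4, PKM, PDK4, GYS1 and PYGL did not pass. Leaving out each library in turn, 19 of the 26 passed every time; GYS1 (-1.04 to -0.97), HK1 (-0.52 to -0.46), PDHB (-0.73 to -0.55), PDK2 (-1.39 to -1.30), PDK4 (-0.85 to -0.76), PYGL (-0.66 to -0.60) and SLC2A3 (-2.04 to -1.93) lost their call without one or another library, controls included. SLC2A1 differed by -2.97 with all libraries and -2.13 without that replicate. The members that fell in siMapk14 and rose in siMapk8+9 at the threshold were SLC2A1, SLC2A3, HK2, PGK1, ENO2, LDHA, PDK1, PDK4 and PPP1R3C, and 9 others rose in both (ALDOA, TPI1, GAPDH, LDHB, PDHA1, PDHB, PGD, TALDO1 and TKT). With the length trend removed 3 members rose in both (PDHA1, PGD and TKT), and 11 fell in siMapk14 and rose in siMapk8+9: PGK1, PDK1 and PDK4 left that group, and HK1, ALDOA, TPI1, PGAM1 and ENO1 joined it. How many of all genes fall in these crossed groups was not computed, so the crossed counts only describe the members. Members whose difference did not pass with all libraries included LDHB (-0.33 ± 0.26), GPI (0.03 ± 0.14), PDHA1 (0.01 ± 0.16), PGD (-0.35 ± 0.15) and PDK3 (0.16 ± 0.28). Without siMapk8+9 replicate 2, LDHB, PGD and TALDO1 passed as lower.

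The 2 control sets themselves differed in these genes, and the difference of the effects contains that gap. As the Mapk14 control minus the Mapk8+9 control, 17 members were higher and 0 lower at the threshold in edgeR, against 22.3% of 13648 genes in either direction and 11.3% higher, and the median was 0.38 over the members against 0.000486 over all genes. Of the 39, 32 lay above the other set with no overlap between libraries, against 37.3% of all genes. Without siMapk8+9 replicate 2, which enters this comparison through the shared estimate of spread, 30 were higher and 2 (PFKFB2 and PDK3) lower, against 19.5% of all genes higher and 41.5% in either direction. Leaving out 1 library at a time kept 10 of the 17 throughout; GAPDH, PFKL, PFKP, PGAM1, PGD, PGK1 and PYGL lost their call without a control library. SLC2A1 stood at 441, 514 and 564 CPM in the Mapk14 control and 109, 111 and 117 in the Mapk8+9 control (log2 fold change 2.17 ± 0.37, SE, edgeR adjusted p = 0.00141). HK2 differed by 1.56 ± 0.29, SLC2A3 by 1.80 ± 0.38, PPP1R3C by 1.83 ± 0.11, ENO2 by 1.36 ± 0.13, GBE1 by 0.96 ± 0.10 and ALDOA by 0.95 ± 0.13. GAPDH differed by 0.60 ± 0.19, whereas GYS1, LDHB, PDHA1 and PDK4 did not pass, at 0.10, 0.12, 0.10 and 0.13. The control set and the batch cannot be told apart. The share of nuclear counts taken by all 39 members was 3.00% to 3.10% in the Mapk14 control, 2.89% to 3.07% in siMapk14, 2.19% to 2.22% in the Mapk8+9 control and 3.93% to 4.20% in siMapk8+9. By TPM, which divides by transcript length, the share was 3.44% to 3.54%, 2.75% to 2.80%, 2.71% to 2.77% and 3.54% to 3.77% in the same order. Thus siMapk14 lay below its control without overlap on this scale and overlapped it on counts. TPM does not remove the length trend between libraries, and these shares were not computed with that trend removed. The siMapk14 libraries of SLC2A1, SLC2A3, HK2 and ENO2 all lay above the Mapk8+9 control, although below their own, and those of LDHA overlapped it: LDHA stood at 1738, 1835 and 1722 CPM in siMapk14 and 1739, 1660.4 and 1693 in that control. Conversely, the siMapk8+9 libraries of SLC2A1, SLC2A3, HK2 and ENO2 were neither all above nor all below the Mapk14 control. Those of LDHA all lay above it. Over the 39 members, siMapk8+9 lay above the Mapk14 control without overlap for 19, below for 6 and neither for 14. The matching shares of all genes were not computed, so whether these counts are particular to the members is not known.

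Isoenzyme shares, computed within each library from TPM, differed along with the levels. With 3 libraries against 3 the exact permutation test cannot go below p = 0.1, two-sided, and 34 such tests were made, so the shares are a description. LDHB held 20.2, 19.7 and 18.1% of lactate dehydrogenase TPM in the Mapk14 control and 35.2, 34.1 and 32.6% in siMapk14. The groups did not overlap, and the difference in the LDHA share, -14.7 percentage points, was -8.49 points with the length trend removed. SLC16A1 held 39.02, 39.1 and 39.3% of the transporter pair in the control and 57.1, 55.9 and 54.7% in siMapk14, a gap of 16.8 points that was 22.0 points with the trend removed. PFKL held 31.3, 29.7 and 29.4% of phosphofructokinase in the control and 15.9, 18.6 and 17.95% in siMapk14, and 31.02, 29.5 and 31.1% and 18.05, 19.99 and 19.8% in the Mapk8+9 control and siMapk8+9. PFKP held 61.4% on average in the Mapk14 control and 73.3% in siMapk14, and 58.8% and 73.9% in the Mapk8+9 control and siMapk8+9. The PFKL difference was -12.7 points in siMapk14 and -11.3 in siMapk8+9, and -11.1 and -8.44 with the trend removed. For PFKP it was 11.8 and 15.1 points, and 8.78 and 10.6 with the trend removed. HK2 held 30.4, 33.4 and 34.7% of the hexokinase pair in the Mapk14 control and 23.2, 22.2 and 27.2% in siMapk14, but 19.5, 17.5 and 18.5% in the Mapk8+9 control and 25.4, 42.6 and 29.2% in siMapk8+9, lower in every library of the first knockdown and higher in every library of the second. The difference in the share of its partner HK1 was 8.65 points in siMapk14 and -13.9 in siMapk8+9. With the trend removed these were 5.68 and -18.6 points.

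**Figure D5:**
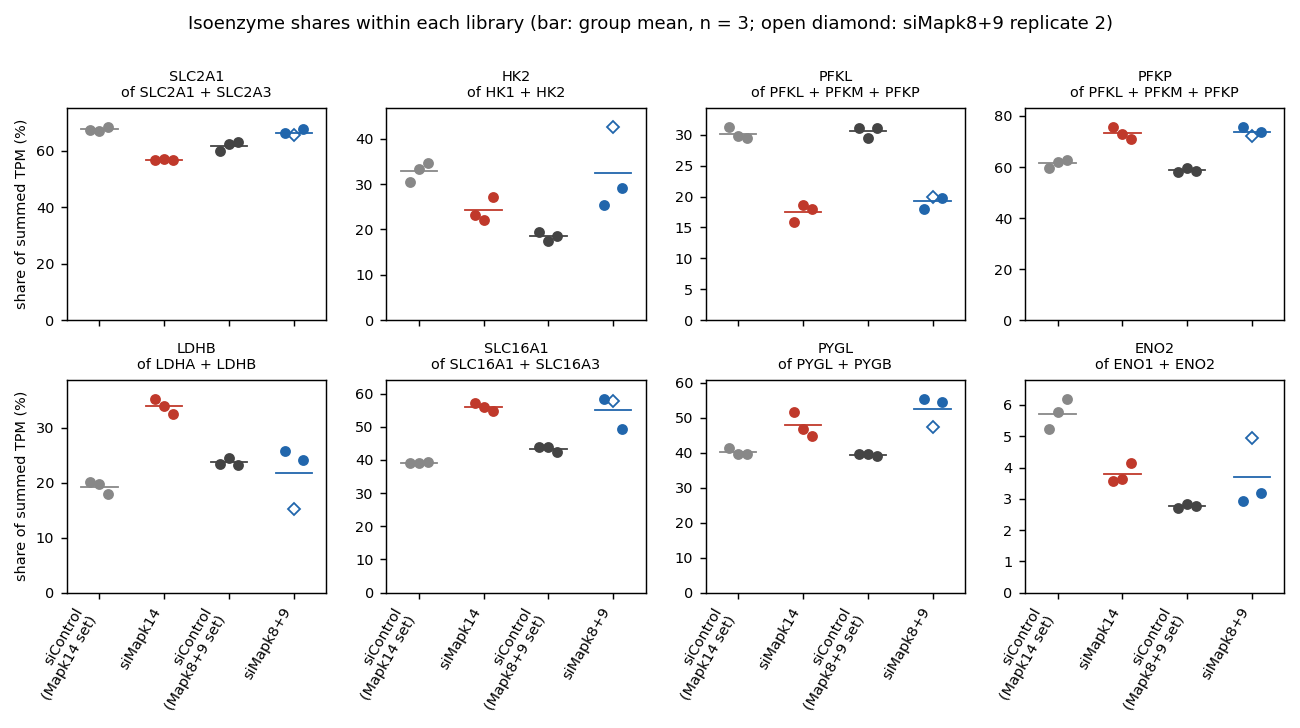
Share of summed TPM (percent, y axis from 0) held by 8 isoenzyme or carrier genes within their family in each of the 12 libraries, with bars at group means and an open diamond for siMapk8+9 replicate 2. LDHB is between 32.6% and 35.2% in the siMapk14 libraries against 18.1% to 20.2% in their control, and PFKL is lower in both knockdowns than in either control set.

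Of a wider list of 68 genes of glucose metabolism that are not members, 66 were in both tables. In siMapk14, 15 of the 54 tested rose and 16 fell, against 59.9% of all genes called in either direction. In siMapk8+9, 16 rose and 11 fell, against 52.9%, so that both counts were near the share of all genes. The mitochondrial pyruvate carrier genes MPC1 and MPC2 rose in siMapk14, from 11.9, 13.5 and 13.6 to 47.03, 46.9 and 40.8 CPM (log2 fold change 1.82 ± 0.10, SE, edgeR adjusted p = 5.01e-06) and at 1.20 ± 0.09; with the length trend removed they were 0.96 and 0.95. SLC2A13, an inositol carrier, fell at -1.17 ± 0.11 and GYG1, the glycogen primer, rose at 0.98 ± 0.11 in siMapk14. TIGAR, which lowers fructose 2,6-bisphosphate, rose in siMapk14 at 0.87 ± 0.12. In siMapk8+9 the mitochondrial phosphoenolpyruvate carboxykinase PCK2 rose at 1.83 ± 0.13. PDPR, a regulatory subunit of pyruvate dehydrogenase phosphatase, and PGM2L1, which makes a sugar bisphosphate in brain, fell there at -1.21 ± 0.10 and -1.24 ± 0.11, and with the trend removed PDPR did not pass. The 2 effects differed for 12 of 55, against 15.9% of all genes, among them PPP1R3B, the liver relative of PPP1R3C, at -3.40 ± 0.28, PC, pyruvate carboxylase, at -1.89 ± 0.36, and PDPR at 0.70 ± 0.14. Between the control sets 13 of 55 differed, near the 22.3% of all genes, with HKDC1, a hexokinase relative, at 3.19 ± 0.47, PPP1R3B at 2.49 ± 0.20 and PGM2L1 at -1.42 ± 0.10. FBP1, the reverse step of phosphofructokinase, had at most 4 counts in 11 libraries and 42 in siMapk8+9 replicate 2, and was not tested.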

How the data were processed

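RNA-seq of 12 libraries was analysed. Reads had been aligned with Bowtie2 2.3.4.3 and quantified with RSEM 1.3.1 on GRCh38.p14, and tested with DESeq2 1.4.5, per the submitters' processing notes; which annotation was used is not given in the sources used here. The authors deposited for each gene an expected count, which RSEM estimates by dividing shared reads among genes, and these were rounded to whole numbers here. The deposited FPKM values scale counts by length and depth, and served to recover each gene's effective length (from genes with a count of at least 10). The deposited TPM values, scaled by the authors for transcript length and library total, were used for levels between genes and for isoenzyme shares. Another 12 per-library columns were not used.

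Each experiment was fitted alone with edgeR 4.0.16 (filterByExpr, TMM scaling, robust quasi-likelihood test, Benjamini-Hochberg over all genes, threshold 0.05), in R 4.3.3. The difference of effects and the control sets came from a joint fit of all 12 libraries. The length trend was removed as a lowess offset (span 0.3) per library. Isoenzyme shares used an exact permutation test in scipy 1.17.1. The scripts were tested on simulated data. Alternatives were other tools (DESeq2 1.42.0 and limma-voom with limma 3.58.1), other scaling (RLE or total counts), other filters (none, or a mean CPM of 1), a replicate block, the joint fit, removal of the length trend, omission of mitochondrial genes, and omission of each library; removal of the trend together with siMapk8+9 replicate 2 was chosen after seeing the data. Per-library values were given for called members with non-overlapping groups (up to 6 per direction by adjusted p), their isoenzyme partners and a list of named genes, to which values of other members were added; other pathway genes were named by adjusted p, up to 4 per comparison, with a few in any case, of which some results are not reported here. The members and lists were chosen with earlier results of these data known. In the smallest library 1 count equals 0.108 CPM, and values near this cannot be told from 0.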

Additional observations from a re-analysis of the deposited data

How the results depend on the processing

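Directions of single members turned most often under total-count scaling, which moves all genes together. In siMapk14 this gave GPI -0.56, PFKM -0.71, PFKP -0.70, PFKFB2 -0.57, ALDOA -0.48, TPI1 -0.52, GAPDH -0.20, PGAM1 -0.68, ENO1 -0.67, LDHB -0.051, PDHA1 -0.32, PDHB -0.43, PGM1 -0.67, PGD -0.26, TALDO1 -0.24, TKT -0.45 and GBE1 -0.72 on the log2 scale. In siMapk8+9 it gave HK1 -0.60, GPI -0.51, PFKFB3 -0.23, PKM -0.27, PDK2 -0.072, PDK4 -0.16, PDHA1 -0.26, SLC16A1 -0.25 and PYGL -0.11. In the difference of effects it gave GPI -0.051 and PDHA1 -0.057. With the length trend removed, with or without the replicate block, siMapk14 turned for PFKP (-0.042, with the block -0.043), ALDOA (-0.24), TPI1 (-0.36), GAPDH (-0.075, with the block -0.077), PGAM1 (-0.29), ENO1 (-0.29), PDHB (-0.19), PGM1 (-0.076) and TALDO1 (-0.16). Under the same setting siMapk8+9 turned for PYGB (0.19, with the block 0.16) and, without the block, PFKFB2 (0.011); the difference of effects turned for PDK3 (-0.024, with the block -0.031) and PDHA1 (-0.078, with the block -0.066); and the control sets turned for LDHB (-0.070, with the block -0.072). With the trend removed and siMapk8+9 replicate 2 left out, ALDOC was -0.27 and SLC16A1 -0.29 in siMapk8+9, GPI was -0.095 and PDHA1 -0.24 in the difference, and LDHB was -0.073 between the control sets. Without a filter PFKM was -0.0028 in siMapk14 and HK1 -0.024 in siMapk8+9. SLC16A1 in siMapk8+9 was -0.10 by limma-voom and -0.077 with the replicate block. The cause was not tested.

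Counts of members called under total-count scaling were 8 in siMapk8+9, 18 in the difference of effects and 8 between the control sets, where limma-voom gave 26 and removal of the trend with siMapk8+9 replicate 2 gave 30. Over all genes, the difference of effects had 2169 calls, 1028 with total counts and 4635 with the trend and replicate 2 removed. The control sets had 3045, 1346 with total counts, 5213 by limma-voom and 5502 with the trend and replicate 2 removed. In siMapk8+9 there were 6938, 6036 with total counts, and 3923 in the fit with the trend removed and the block. Same-numbered libraries of a knockdown and its control did not deviate together (r of 0.0028, 0.0093 and 0.0478 in siMapk14, and -0.0236, -0.0300 and -0.0239 in siMapk8+9). Values this near 0 show no pairing by number but cannot exclude that the libraries were prepared in pairs. The replicate block gave 30 members in siMapk14, 23 in siMapk8+9, 20 in the difference and 13 between the control sets. Over all genes the block gave 7474, 6058, 1179 and 2477 in the same order.

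Leaving out each library in turn gave 27 to 30 members in siMapk14, 18 to 35 in siMapk8+9, 19 to 30 in the difference and 10 to 32 between the control sets. Over all genes it gave 6410 to 8612, 4509 to 9554, 1266 to 5205 and 1653 to 5836. Members that changed sign ranged in siMapk14 from -0.30 to 0.18 for ALDOC, -0.018 to 0.096 for GBE1 and -0.061 to 0.11 for PFKM. In siMapk8+9 they ranged from -0.062 to 0.13 for HK1, -0.16 to 0.58 for PFKFB3, -0.022 to 1.14 for PFKFB4, -0.51 to 0.0071 for PYGB and -0.67 to 0.54 for SLC16A1. In the difference they ranged from -0.053 to 0.11 for GPI, -0.065 to 0.12 for PDHA1, -0.022 to 0.40 for PDK3 and -1.18 to 0.11 for SLC16A1. A fit without a control library leaves that arm with 2, and depth limits ALDOC, PFKFB2 and PDK2, the members with the fewest counts.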
